A study of Sus scrofa domesticus with 12 samples.

Results

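Solute carriers are membrane proteins that move sugars, amino acids, metals, ions and other small solutes across the cell surface and the membranes of organelles, and they were examined here in pig muscle after volumetric muscle loss (VML). The members were the rows of the abundance table named SLC, a family number, A and a member number. Family SLC25, the carriers of the inner mitochondrial membrane, was left out. The table held 165 such rows, of which 93 from 34 families reached at least 1 TPM (a relative transcript level, corrected for transcript length and scaled to the same sum in every library) in all libraries of at least 1 condition. They were sorted by main substrate into 11 classes, and they are 93 of 8782 genes tested and of 11506 rows in all. Of the other 72 rows, 8 are listed at 0 in every library.

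The peroneus tertius (PT), a muscle of the lower leg, was sampled in female Yorkshire Cross pigs 12 weeks after surgery. There were 12 libraries, each from 1 limb, of 11 pigs. The 2 Sham limbs (sham-operated) had the muscle exposed and nothing excised. The 2 No repair limbs (non-repaired) had a block cut out of the middle of the muscle and no implant. The 2 HA limbs (Hya-repaired) had the same defect filled with a hyaluronic acid hydrogel, and the 6 ECM-SIS limbs (ECM-repaired) had it filled with a decellularized extracellular matrix. The labels name that matrix as small intestinal submucosa for all 6. The study also describes urinary bladder matrix among these libraries, so the 2 materials cannot be told apart here. Both limbs of pig 017 were used, 1 non-repaired and 1 Hya-repaired. The 3 injured conditions, averaged at equal weight, are called VML-injured.

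Muscle takes up glucose through carriers of the SLC2 family, of which SLC2A4 (GLUT4) is kept in vesicles inside the fiber until insulin or contraction brings it to the surface. Lactate leaves glycolytic fibers through SLC16A3 (MCT4). Sodium-coupled SLC38 carriers bring in glutamine and alanine, and SLC7 carriers joined to SLC3A2 exchange larger neutral amino acids. Zinc enters the cytosol through the ZIP carriers (SLC39) and leaves it through the ZnT carriers (SLC30), several of which serve the Golgi apparatus and secretory vesicles. Muscle fibers, fibroblasts and macrophages carry different sets of these proteins.

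The tissue in the libraries differed widely. Summed TPM of 13 muscle fiber markers was 146852 and 150303 in the sham-operated limbs against 11096 to 74036 in injured limbs. That of 7 fibroblast markers was 1152 and 1647 against 38702 to 100860. Macrophage markers, 8 in number, summed to 25.2 and 41.2 against 474 to 1269. Of these lists, 10 of 13 fiber markers were called lower, and 7 of 7 fibroblast and 8 of 8 macrophage markers higher. In whole muscle, fewer cells of a type and less RNA per cell cannot be told apart. The part of these cell types in the results on single carriers was not tested. The median of all tested genes lay at a log2 fold change of 0.73 in VML-injured against Sham. Each change of a single gene in VML-injured against Sham is therefore also given after rescaling the libraries by trimmed means of log ratios (TMM), which put that median at -0.01. Fits with a library left out are as deposited. So are values of single carriers in separate conditions, between injured conditions and as slopes. In brackets, the log2 fold change and limma adjusted p as deposited come first and those after rescaling follow. The named genes held 71.5 to 82.7% of the TPM of a library, and the read depth is unknown from TPM.

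Across all solute carriers, 41 of 93 rose and 8 fell in VML-injured against Sham, while 44 did not pass the test (limma on log2(TPM + 0.5), adjusted p below 0.05). Over all genes tested, 49.4% were called higher and 7.66% lower, so the counts over the carriers lay near the background. After rescaling, 31 were called higher and 30 lower, against 28.7% and 28.7% of all genes. All 31 of the former and all 8 that fell without rescaling are the same members on both scales, 10 rises lost the call, 22 further members were called lower, and no call turned direction. In 40 members every injured limb lay above both sham-operated limbs and in 12 every one lay below, where all genes gave 49.8% and 8.52%. After rescaling these numbers were 31 and 29, against 28.3% and 28.3% of all genes. Below, statements that limbs overlap with Sham or lie above or below it are on TPM as deposited. After rescaling, every injured limb lay below both shams in SLC2A5, SLC16A1, SLC38A2, SLC3A2, SLC30A9, SLC11A2 and SLC31A2. SLC2A1 no longer lay above both in every injured limb. The 3 members that passed the filter through Sham alone (SLC7A2, SLC44A3 and SLC6A6) include 2 of the 8 falls, and the 24 that passed through injured conditions alone include 18 of the 41 rises. The number of sham-operated limbs, 2, limits every comparison with Sham. Fewer members were called higher and fewer lower without sham pig 025, sham pig 026 or Hya-repaired pig 016. The same was not counted over all genes, so this drop is not a result about the carriers in particular.

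**Figure D1:**
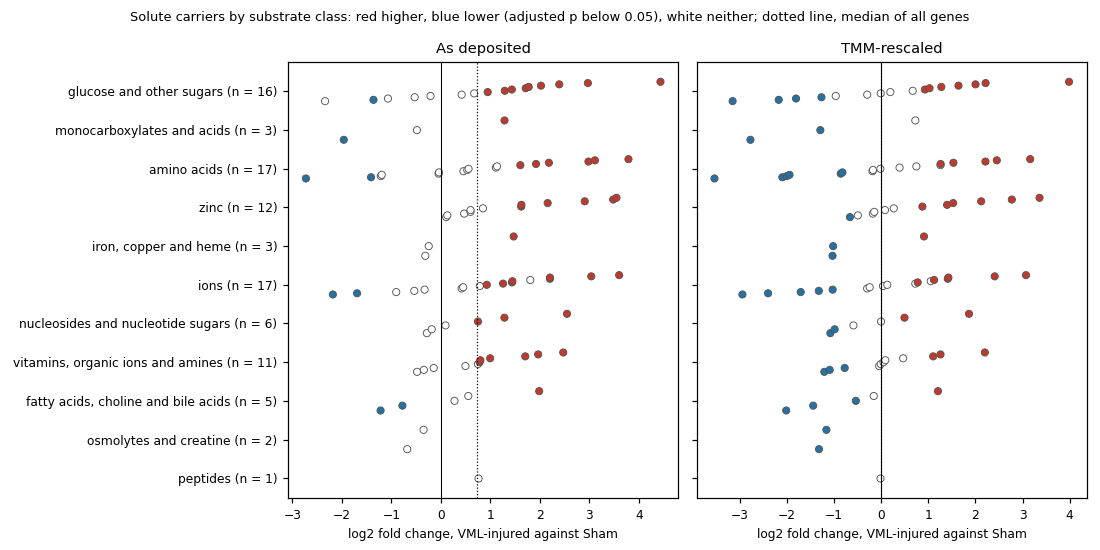
Each point is 1 of the 93 solute carriers, placed by its log2 fold change in VML-injured against Sham (x axis) and its substrate class (y axis), with TPM as deposited on the left and rescaled on the right. Red points were called higher, blue points lower and white points neither, and the dotted line marks the median of all tested genes, 0.73 on the left and -0.01 on the right. All 12 zinc carriers lie above 0 on the left, and 8 of 12 on the right, where 6596 and 4362 of all 8782 tested genes do.

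Of 16 sugar carriers tested, 9 rose, of which 4 had passed the filter through injured conditions alone, and 1 fell, shares near the 49.4% and 7.66% of all genes, and after rescaling 7 were called higher and 4 lower. SLC2A4 had 103 and 109 TPM in Sham, 26.8 and 40.3 in non-repaired, 6.59 and 57.8 in Hya-repaired and 2.76 to 43.5 (median 21.7) in ECM-repaired limbs. Every injured limb lay below both sham-operated limbs, and those from pigs 014, 018 and 016 stood lowest. Its mean was 106 ± 4.06 TPM (SD, n = 2) in sham-operated and 24.9 ± 18.2 TPM (SD, n = 10) in injured muscle, and it missed the threshold as deposited and passed it after rescaling (log2 fold change -2.34 ± 0.99 SE, limma adjusted p = 0.062, rescaled -3.15, adjusted p = 0.0147). Without ECM-repaired pig 021 it passed as deposited too (log2 fold change -2.45, limma adjusted p = 0.0458), and without Hya-repaired pig 017 the log2 fold change was -2.85. These were the injured limbs with the highest SLC2A4, at 43.5 and 57.8 TPM, so leaving either out widens the difference. Over the 12 fits that each left out 1 library, the log2 fold change of SLC2A4 ranged from -2.85 to -1.83. In the separate conditions, as deposited, SLC2A4 was lower in ECM-repaired muscle, by -2.95 (limma adjusted p = 0.0274), and did not pass in non-repaired, -1.68 (limma adjusted p = 0.275), or Hya-repaired muscle, -2.39 (limma adjusted p = 0.147). It made up 50.5 and 52.8% of the summed TPM of the 16 sugar carriers in the shams and 2.23 to 33.4% in injured limbs.

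As deposited, the summed level of the class hardly separated the groups. It was 196 and 216 TPM in Sham, 179 and 238 in non-repaired, 192 and 173 in Hya-repaired and 118 to 234 (median 174) in ECM-repaired limbs, so that the injured limbs lay on both sides of the sham-operated limbs. Summed levels of this and the other classes were not taken after rescaling. Rescaling multiplies TPM by 1.82 and 1.51 in the sham-operated and by 0.667 to 1.21 in the injured limbs, so this overlap need not hold there. The sugar carriers that rose stood below SLC2A4 in the sham-operated limbs. SLC2A10 (GLUT10), a hexose carrier whose loss in humans causes tortuous arteries, had 0.204 and 0.894 TPM in Sham, 23.3 and 35.8 in non-repaired, 29.7 and 7.64 in Hya-repaired and 11.2 to 39.5 (median 22.6) in ECM-repaired limbs. It had the highest log2 fold change of all 93 members (log2 fold change 4.44 ± 0.55 SE, limma adjusted p = 3.37e-05, rescaled 3.99, adjusted p = 3.79e-05). SLC2A10 passed the filter through injured conditions alone, so its rank is partly set by the filter. SLC50A1, a sugar carrier found on the Golgi apparatus, had 3.38 and 5.55 TPM in Sham, 33.6 and 35.96 in non-repaired, 54.7 and 22.3 in Hya-repaired and 34.7 to 54.4 (median 42.8) in ECM-repaired limbs (log2 fold change 2.97 ± 0.30 SE, limma adjusted p = 8.94e-06, rescaled 2.22, adjusted p = 7.99e-05). Every injured limb held at least 22.3 TPM, and no sham-operated limb more than 5.55 TPM. SLC5A10, a sodium-coupled carrier of mannose and fructose, was at 0.202 and 0.452 TPM in Sham and 2.44 to 7.52 TPM (median 3.78) in injured limbs (log2 fold change 2.39, limma adjusted p = 1.11e-04, rescaled 2.001, adjusted p = 2.34e-04). SLC5A10 too had passed the filter through injured conditions alone.

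SLC2A1 (GLUT1), the basal glucose carrier of most cells, had 1.03 and 1.23 TPM in Sham, 2.29 and 3.96 in non-repaired, 6.40 and 1.51 in Hya-repaired and 3.32 to 5.995 (median 4.09) in ECM-repaired limbs. All injured limbs lay above both shams, the Hya-repaired limb of pig 017 only just (log2 fold change 1.29 ± 0.40 SE, limma adjusted p = 0.0159, rescaled 0.67, adjusted p = 0.101). The rise lost its call after rescaling, and also without sham pig 025 (adjusted p = 0.122) or 026 (adjusted p = 0.0668). A second row of the table, LOC102164419, carries a gene ID that RefSeq names SLC2A1. Alone it missed the threshold (log2 fold change 0.97 ± 0.41 SE, limma adjusted p = 0.058). When both rows were summed, as deposited, the log2 fold change was 1.34 ± 0.42 (SE, limma adjusted p = 0.0167). The sum was not tested after rescaling. SLC2A3 (GLUT3), a high-affinity glucose carrier abundant in neurons and leukocytes, had 3.56 and 4.04 TPM in Sham, 8.94 and 30.8 in non-repaired, 17.5 and 8.20 in Hya-repaired and 8.55 to 27.6 (median 12.01) in ECM-repaired limbs. It rose on both scales (log2 fold change 1.77 ± 0.49 SE, limma adjusted p = 0.00851, rescaled 1.02, adjusted p = 0.0352), and the call was lost without sham pig 025 (adjusted p = 0.0797). SLC2A5, the fructose carrier, was at 3.90 and 5.25 TPM in Sham and 1.42 to 5.17 TPM (median 2.44) in injured limbs and overlapped between the groups (log2 fold change -0.53, limma adjusted p = 0.212, rescaled -1.27, adjusted p = 0.0154). SLC37A4, which brings glucose-6-phosphate into the endoplasmic reticulum, had 61.5 and 61.04 TPM in Sham, 27.6 and 37.4 in non-repaired, 16.1 and 31.4 in Hya-repaired and 8.08 to 28.5 (median 22.3) in ECM-repaired limbs. It was lower in every injured limb than in both shams, and fell on both scales (log2 fold change -1.36 ± 0.41 SE, limma adjusted p = 0.0138, rescaled -2.18, adjusted p = 6.67e-04), although without sham pig 025 (adjusted p = 0.0928) or 026 (adjusted p = 0.0735) the call as deposited was lost.

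Of 9 tested genes of GLUT4 traffic and glucose use, 1 rose and 5 fell (49.4% and 7.66% of all genes), and 0 were higher and 7 lower after rescaling (28.7% and 28.7%). IRS1, an adaptor of the insulin receptor, fell (log2 fold change -1.83 ± 0.46 SE, limma adjusted p = 0.00509, rescaled -2.62, adjusted p = 3.79e-04). So did LNPEP, the aminopeptidase that travels in the same vesicles as GLUT4 (log2 fold change -1.08 ± 0.34 SE, limma adjusted p = 0.0174, rescaled -1.83, adjusted p = 2.99e-04). HK1, the hexokinase of most tissues, rose as deposited and missed the threshold after rescaling (log2 fold change 2.50 ± 0.73 SE, limma adjusted p = 0.0125, rescaled 1.76, adjusted p = 0.0529).

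**Figure D2:**
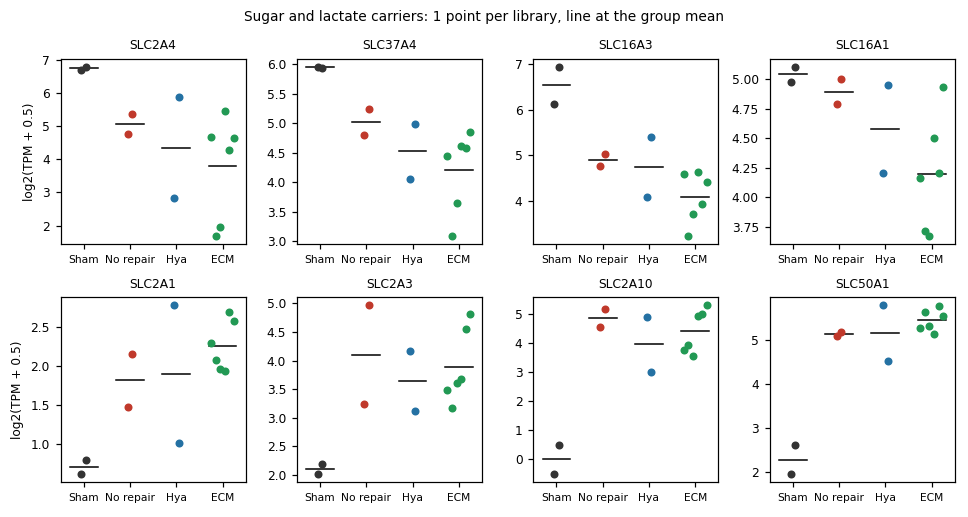
Points are log2(TPM + 0.5) of 8 sugar and lactate carriers in the 2 Sham, 2 No repair, 2 Hya and 6 ECM libraries (x axis), and lines are group means. SLC2A4, SLC37A4 and SLC16A3 were lower in every injured library than in both Sham libraries, and SLC2A1, SLC2A3, SLC2A10 and SLC50A1 were higher in every one.

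Of 3 lactate carriers, 1 rose, which had passed the filter through injured conditions alone, and 1 fell (49.4% and 7.66% of all genes). SLC16A3, the exporter of glycolytic cells, had 69.6 and 122 TPM in Sham, 26.5 and 32.1 in non-repaired, 16.4 and 41.9 in Hya-repaired and 8.93 to 24.2 (median 17.9) in ECM-repaired limbs. Every injured limb lay below both sham-operated limbs, and SLC16A3 fell on both scales (log2 fold change -1.96 ± 0.41 SE, limma adjusted p = 0.00149, rescaled -2.78, adjusted p = 2.82e-04) and in each injured condition, by -2.45 (limma adjusted p = 3.70e-04) in ECM-repaired, -1.64 (limma adjusted p = 0.0197) in non-repaired and -1.79 (limma adjusted p = 0.0163) in Hya-repaired muscle. SLC16A1 (MCT1), which carries lactate in both directions and serves oxidative fibers, had 31.01 and 33.8 TPM in Sham, 27.1 and 31.5 in non-repaired, 17.9 and 30.4 in Hya-repaired and 12.3 to 30.1 (median 17.7) in ECM-repaired limbs. Its groups overlapped, and in VML-injured muscle it was called lower only after rescaling (log2 fold change -0.48 ± 0.32 SE, limma adjusted p = 0.205, rescaled -1.29, adjusted p = 0.00168), while in ECM-repaired muscle it fell as deposited too, by -0.84 (limma adjusted p = 0.0414). SLC16A7 (MCT2), a carrier of higher affinity, was at 0.733 and 0.846 TPM in Sham and 1.83 to 4.89 TPM (median 2.43) in injured limbs and rose as deposited only (log2 fold change 1.29, limma adjusted p = 0.00385, rescaled 0.72, adjusted p = 0.0761), a call lost without sham pig 025 (adjusted p = 0.055). SLC16A3 gave 68.7 and 77.9% of the TPM of the 3 carriers in sham-operated and 33.8 to 56.4% in injured limbs. Of 5 lactate handling genes, 2 rose and 1 fell. LDHA, which turns pyruvate into lactate, fell (log2 fold change -2.14 ± 0.48 SE, limma adjusted p = 0.00255, rescaled -2.96, adjusted p = 0.00104), while EMB, a partner protein of lactate carriers, rose (log2 fold change 1.46 ± 0.34 SE, limma adjusted p = 0.00294, rescaled 1.14, adjusted p = 0.0319). HIF1A, a transcription factor of the response to low oxygen, also rose (log2 fold change 1.32 ± 0.31 SE, limma adjusted p = 0.00327, rescaled 0.52, adjusted p = 0.0388).

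Among 17 amino acid carriers, 6 rose and 2 fell, of which 2 had passed the filter through injured conditions alone and 1 through Sham alone, against 5 higher and 6 lower after rescaling. Of all genes tested, 49.4% were called higher and 7.66% lower, and 28.7% and 28.7% after rescaling. The SLC38 family held both extremes: of 7 tested, 4 rose and 1 fell. SLC38A3 (SNAT3), a glutamine carrier, had 44 and 55.9 TPM in Sham, 7.80 and 15.6 in non-repaired, 3.05 and 18.6 in Hya-repaired and 0.441 to 14.9 (median 6.96) in ECM-repaired limbs. All injured limbs were below both shams, with pigs 014 and 018 under 1 TPM (log2 fold change -2.73 ± 1.002 SE, limma adjusted p = 0.0365, rescaled -3.54, adjusted p = 0.00828). The call as deposited was lost in 4 of 12 fits that each left out 1 library, those without sham pig 025 (adjusted p = 0.147), sham pig 026 (adjusted p = 0.171), non-repaired pig 017 (adjusted p = 0.0709) or Hya-repaired pig 016 (adjusted p = 0.0735). SLC38A5 (SNAT5), which also carries glutamine, moved the other way, with 0.856 and 1.63 TPM in Sham, 24.6 and 20.1 in non-repaired, 46.03 and 13.3 in Hya-repaired and 15.7 to 28.1 (median 23.8) in ECM-repaired limbs. The lowest injured limb, Hya-repaired pig 017, lay above the higher sham, at 1.63 TPM (log2 fold change 3.79 ± 0.39 SE, limma adjusted p = 9.78e-06, rescaled 3.16, adjusted p = 4.39e-05). SLC38A5 had passed the filter through injured conditions alone. SLC38A10 had 3.996 and 9.88 TPM in Sham, 55.2 and 51.1 in non-repaired, 100.4 and 33.6 in Hya-repaired and 26.5 to 86.2 (median 52.5) in ECM-repaired limbs (log2 fold change 2.98 ± 0.46 SE, limma adjusted p = 1.83e-04, rescaled 2.21, adjusted p = 7.54e-04). SLC38A2 (SNAT2), which cells make more of when amino acids are short, had 36.5 and 37.1 TPM in Sham, 24.3 and 24.7 in non-repaired, 8.58 and 15.2 in Hya-repaired and 7.68 to 48.99 (median 12.5) in ECM-repaired limbs. The ECM-repaired limb of pig 024, at 48.99 TPM, lay above both shams, the other 9 injured limbs below them, and in VML-injured muscle SLC38A2 was called lower after rescaling only (log2 fold change -1.19 ± 0.53 SE, limma adjusted p = 0.0682, rescaled -2.005, adjusted p = 0.0023), while in ECM-repaired muscle it fell as deposited too, by -1.36 (limma adjusted p = 0.0465). Without that limb, where SLC38A2 was highest, it passed as deposited (log2 fold change -1.31, limma adjusted p = 0.00341). Over the 12 fits that each left out 1 library, the log2 fold change ranged from -1.325 to -1.063.

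SLC1A5 (ASCT2), a sodium-dependent exchanger of glutamine and other neutral amino acids, had 1.004 and 2.41 TPM in Sham, 16.9 and 22.3 in non-repaired, 25.9 and 8.71 in Hya-repaired and 11.1 to 26.4 (median 21.3) in ECM-repaired limbs. The lowest injured limb, at 8.71 TPM, was above the higher sham, at 2.41 TPM (log2 fold change 3.11 ± 0.42 SE, limma adjusted p = 5.91e-05, rescaled 2.45, adjusted p = 1.26e-04). SLC1A3 (EAAT1), a glutamate carrier, was at 4.14 and 3.97 TPM in Sham and 0.342 to 3.01 TPM (median 1.28) in injured limbs, all injured limbs below both shams, and passed after rescaling (log2 fold change -1.21, limma adjusted p = 0.0769, rescaled -1.95, adjusted p = 0.00785). It passed as deposited without ECM-repaired pig 024 (limma adjusted p = 0.0497), and without Hya-repaired pig 017 the log2 fold change was -1.53. Over the 12 fits that each left out 1 library, it ranged from -1.53 to -0.895. SLC7A2 (CAT2), which carries arginine and lysine, had 2.44 and 2.62 TPM in Sham, 1.32 and 0.948 in non-repaired, 0.147 and 0.897 in Hya-repaired and 0.135 to 1.48 (median 0.368) in ECM-repaired limbs. SLC7A2 had passed the filter through Sham alone, where it is high. It fell on both scales (log2 fold change -1.41 ± 0.41 SE, limma adjusted p = 0.0106, rescaled -2.10, adjusted p = 5.41e-04), and the call as deposited needed both shams (adjusted p = 0.0754 without pig 025 and adjusted p = 0.0735 without pig 026). SLC3A2, the heavy chain that anchors SLC7 exchangers at the surface, had 42.3 and 57.6 TPM in Sham, 54.1 and 48.6 in non-repaired, 65.8 and 39.7 in Hya-repaired and 31.5 to 56.6 (median 42.1) in ECM-repaired limbs, with overlapping groups and the highest mean level of the class (log2 fold change -0.05 ± 0.26 SE, limma adjusted p = 0.885, rescaled -0.86, adjusted p = 0.00857). Its direction as deposited was positive without sham pig 026 (log2 fold change 0.17, limma adjusted p = 0.697) and without Hya-repaired pig 017 (log2 fold change 0.07, limma adjusted p = 0.803). Of 8 amino acid sensing genes, 3 rose and 3 fell (49.4% and 7.66% of all genes), against 1 and 5 after rescaling (28.7% and 28.7%). ASNS, which makes asparagine, rose (log2 fold change 1.37 ± 0.31 SE, limma adjusted p = 0.00273, rescaled 0.59, adjusted p = 0.0923), and so did RRAGC, a GTPase that recruits mTORC1 to lysosomes (log2 fold change 1.03 ± 0.24 SE, limma adjusted p = 0.00309, rescaled 0.23, adjusted p = 0.225), both as deposited only.

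**Figure D3:**
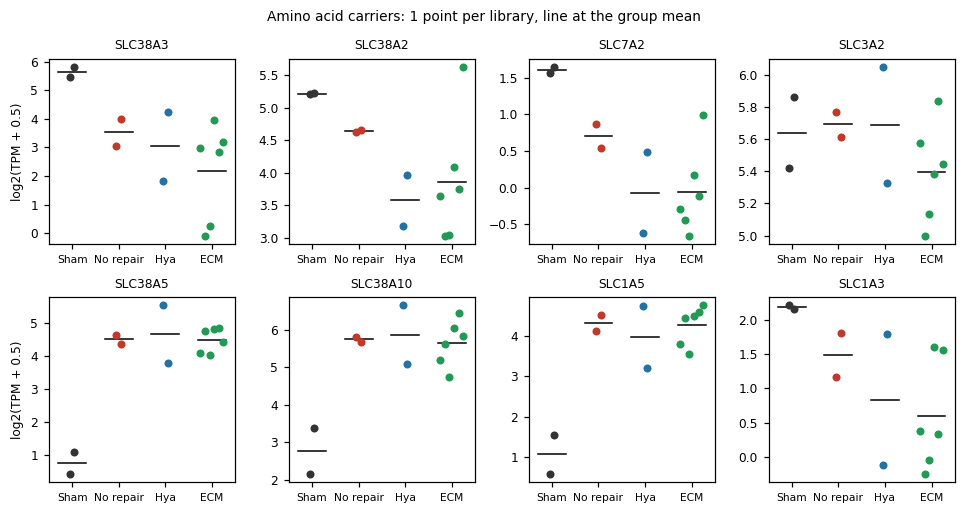
Points are log2(TPM + 0.5) of 8 amino acid carriers by library in the 2 Sham, 2 No repair, 2 Hya and 6 ECM libraries, and lines are group means. SLC38A5, SLC38A10 and SLC1A5 were higher in every injured library, SLC38A3, SLC7A2 and SLC1A3 were lower in every one, and SLC38A2 and SLC3A2 overlapped with Sham.

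Of 12 zinc carriers tested, 6 rose, 0 fell and 6 did not pass, where 49.4% of all genes were called higher and 7.66% lower. After rescaling 6 were called higher and 1 lower. Their summed level was 35.2 and 45.04 TPM in Sham, 241 and 252 in non-repaired, 276 and 119 in Hya-repaired and 154 to 271 (median 204) in ECM-repaired limbs, so that the lowest injured limb, the Hya-repaired limb of pig 017, stood above both shams. SLC39A7 (ZIP7), which releases zinc from the endoplasmic reticulum and Golgi apparatus into the cytosol, had 5.06 and 9.12 TPM in Sham, 88.6 and 88.4 in non-repaired, 139.6 and 48.6 in Hya-repaired and 65.95 to 118 (median 84.96) in ECM-repaired limbs. Its mean was 7.09 ± 2.87 TPM (SD, n = 2) in sham-operated and 88.1 ± 25.8 TPM (SD, n = 10) in injured muscle, and it rose in each of the 3 injured conditions, by 3.54 (limma adjusted p = 7.41e-06), 3.61 (limma adjusted p = 6.65e-05) and 3.50 (limma adjusted p = 1.22e-04) on the log2 scale in ECM-repaired, non-repaired and Hya-repaired muscle (log2 fold change 3.55 ± 0.35 SE, limma adjusted p = 6.59e-06, rescaled 2.77, adjusted p = 2.69e-05 for VML-injured). SLC39A1 (ZIP1), an importer at the cell surface, had 6.63 and 10.8 TPM in Sham, 73.3 and 89.4 in non-repaired, 87.8 and 40.4 in Hya-repaired and 46.8 to 82.4 (median 63.03) in ECM-repaired limbs (log2 fold change 2.91 ± 0.31 SE, limma adjusted p = 1.12e-05, rescaled 2.12, adjusted p = 2.57e-05). Both together gave 33.3 and 44.1% of the summed TPM of the class in sham-operated and 64.6 to 82.5% in injured limbs. SLC39A14 (ZIP14), which imports zinc and iron and is induced by inflammation in the liver, overlapped between the groups, at 0.630 and 1.28 TPM in Sham and 0.782 to 6.88 TPM (median 1.85) in injured limbs (log2 fold change 0.85, limma adjusted p = 0.178, rescaled 0.27, adjusted p = 0.592).

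Among 8 ZnT carriers, 4 rose, of which 3 (SLC30A2, SLC30A7 and SLC30A8) had passed the filter through injured conditions alone, where they are high. SLC30A7 (ZnT7), which loads zinc into the Golgi apparatus, had 0.996 and 1.31 TPM in Sham, 8.79 and 9.90 in non-repaired, 6.16 and 3.09 in Hya-repaired and 5.58 to 12.4 (median 7.77) in ECM-repaired limbs (log2 fold change 2.16 ± 0.32 SE, limma adjusted p = 1.33e-04, rescaled 1.53, adjusted p = 1.36e-04). SLC30A8 (ZnT8), known for filling the insulin granules of pancreatic beta cells, was listed at 0 and at 0.0727 TPM in the sham-operated limbs, at 23.9 and 1.33 TPM in the non-repaired limbs, at 4.09 and 3.52 TPM in the Hya-repaired limbs and at 1.97 to 18.4 TPM (median 6.49) in the ECM-repaired limbs. All injured limbs were above both shams, and their spread was wide, also between the 2 non-repaired limbs (log2 fold change 3.48 ± 0.85 SE, limma adjusted p = 0.00494, rescaled 3.36, adjusted p = 0.00606). The call as deposited was lost without sham pig 025 (adjusted p = 0.0597). SLC30A2 and SLC30A5 also rose, and they are named after their values were seen, to complete the count of 4 (log2 fold change 1.62, limma adjusted p = 0.00703, rescaled 1.40, adjusted p = 0.0145 for SLC30A2, log2 fold change 1.63, limma adjusted p = 0.00136, rescaled 0.87, adjusted p = 0.00348 for SLC30A5). SLC30A6 (ZnT6), which pairs with SLC30A5 in the secretory pathway, was at 3.67 and 3.64 TPM in Sham and 3.37 to 10.99 TPM (median 5.50) in injured limbs and did not pass on either scale (log2 fold change 0.60, limma adjusted p = 0.107, rescaled -0.15, adjusted p = 0.496), though it passed as deposited without ECM-repaired pig 024 (adjusted p = 0.0363). SLC30A1 (ZnT1), the zinc exporter of the cell surface, was at 0.759 and 0.484 TPM in Sham and 0.677 to 2.61 TPM (median 1.20) in injured limbs (log2 fold change 0.60, limma adjusted p = 0.12, rescaled 0.08, adjusted p = 0.804). SLC30A4 (ZnT4) was at 1.03 and 1.01 TPM in Sham and 0.653 to 2.61 TPM (median 1.02) in injured limbs (log2 fold change 0.11, limma adjusted p = 0.785, rescaled -0.50, adjusted p = 0.0734). Neither passed on either scale. SLC30A9, the ZnT carrier with the highest mean level, was at 11.2 and 11.5 TPM in Sham and 7.60 to 25.4 TPM (median 11.99) in injured limbs, with a positive difference as deposited and a call as lower after rescaling (log2 fold change 0.13, limma adjusted p = 0.774, rescaled -0.66, adjusted p = 0.0256). Of 7 tested genes of zinc and metal handling, 3 rose and 1 fell (49.4% and 7.66% of all genes), against 2 and 2 after rescaling (28.7% and 28.7%). HMOX1, which breaks down heme (log2 fold change 2.15 ± 0.27 SE, limma adjusted p = 3.87e-05, rescaled 1.42, adjusted p = 0.00127), and FTL, the light chain of ferritin (log2 fold change 2.73 ± 0.37 SE, limma adjusted p = 5.93e-05, rescaled 1.91, adjusted p = 0.00621), rose on both scales, and TFRC, the transferrin receptor, fell on both (log2 fold change -2.72 ± 0.79 SE, limma adjusted p = 0.0125, rescaled -3.52, adjusted p = 0.00235).

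**Figure D4:**
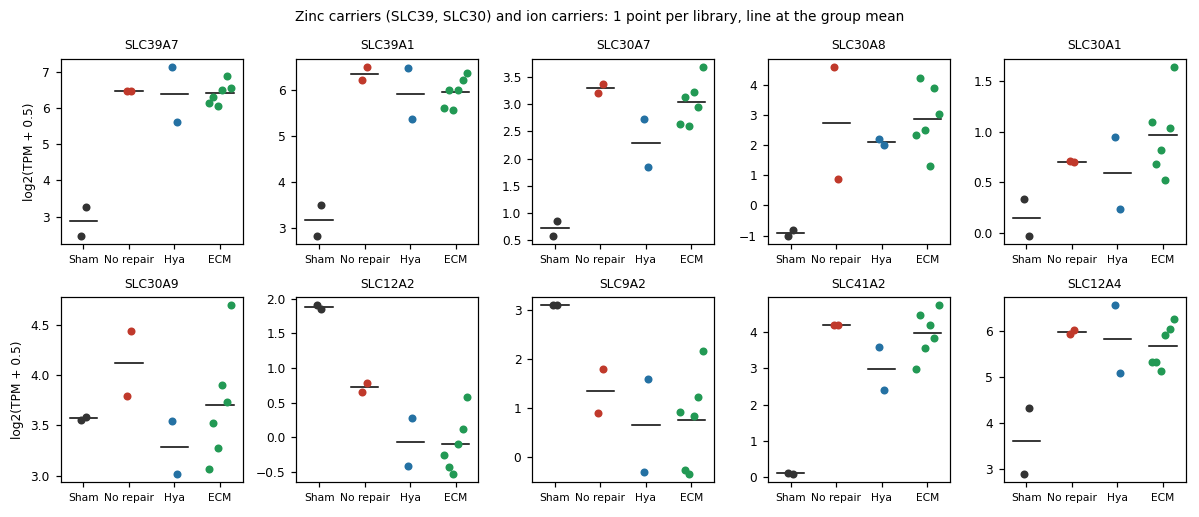
Points are log2(TPM + 0.5) of 6 zinc carriers (SLC39 and SLC30) and 4 ion carriers by library in the 2 Sham, 2 No repair, 2 Hya and 6 ECM libraries, and lines are group means. SLC39A7, SLC39A1, SLC30A7, SLC30A8, SLC41A2 and SLC12A4 were higher in every injured library than in both Sham libraries, SLC12A2 and SLC9A2 were lower in every one, and SLC30A1 and SLC30A9 overlapped.

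Of 17 ion carriers, 8 rose, of which 4 had passed the filter through injured conditions alone, and 2 fell, and 6 were higher and 5 lower after rescaling. The shares of all genes were 49.4% higher and 7.66% lower, and 28.7% and 28.7% after rescaling. The summed level was 84.9 and 133 TPM in Sham, 248 and 275 in non-repaired, 318 and 147 in Hya-repaired and 137 to 371 (median 190.1) in ECM-repaired limbs. Among cation-chloride cotransporters, SLC12A2 (NKCC1), which brings sodium, potassium and chloride into the cell, had 3.25 and 3.10 TPM in Sham, 1.08 and 1.23 in non-repaired, 0.250 and 0.711 in Hya-repaired and 0.196 to 1.001 (median 0.386) in ECM-repaired limbs. Every injured limb lay below both shams (log2 fold change -1.69 ± 0.31 SE, limma adjusted p = 6.79e-04, rescaled -2.40, adjusted p = 3.63e-05), and it fell in each injured condition, by -1.98 (limma adjusted p = 2.62e-04) in ECM-repaired, -1.15 (limma adjusted p = 0.0304) in non-repaired and -1.95 (limma adjusted p = 0.00241) in Hya-repaired muscle. SLC12A4 (KCC1), which lets potassium and chloride out, had 7.01 and 19.7 TPM in Sham, 61.1 and 64.4 in non-repaired, 93.8 and 33.5 in Hya-repaired and 34.5 to 75.7 (median 49.8) in ECM-repaired limbs and rose (log2 fold change 2.20 ± 0.43 SE, limma adjusted p = 9.24e-04, rescaled 1.41, adjusted p = 0.00305). SLC4A2 (AE2), an exchanger of chloride and bicarbonate, had 5.04 and 10.8 TPM in Sham, 40.4 and 44.5 in non-repaired, 65.2 and 19.2 in Hya-repaired and 18 to 56.6 (median 30.7) in ECM-repaired limbs (log2 fold change 2.21 ± 0.50 SE, limma adjusted p = 0.00269, rescaled 1.43, adjusted p = 0.00785). Its call as deposited was lost without sham pig 025 (adjusted p = 0.074).

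Sodium-proton exchangers keep the pH of cells and endosomes. SLC9A2 (NHE2) had 8.05 and 8.05 TPM in Sham, 1.37 and 2.97 in non-repaired, 0.311 and 2.51 in Hya-repaired and 0.286 to 3.95 (median 1.33) in ECM-repaired limbs. It lay lower in all injured limbs (log2 fold change -2.18 ± 0.61 SE, limma adjusted p = 0.00952, rescaled -2.95, adjusted p = 0.00127), although without sham pig 025 (adjusted p = 0.0763) or 026 (adjusted p = 0.0604) the call as deposited was lost. SLC9A5 (NHE5) was at 0.934 and 1.42 TPM in Sham and 5.02 to 20.3 TPM (median 14.9) in injured limbs (log2 fold change 3.04, limma adjusted p = 5.97e-05, rescaled 2.41, adjusted p = 1.63e-04). It rose on both scales, having passed the filter through injured conditions alone.

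SLC41A2, a magnesium carrier, had 0.593 and 0.570 TPM in Sham, 17.8 and 17.7 in non-repaired, 11.4 and 4.81 in Hya-repaired and 7.42 to 26.2 (median 15.8) in ECM-repaired limbs. The lowest injured limb stood at 4.81 TPM and the higher sham at 0.593 TPM (log2 fold change 3.60 ± 0.41 SE, limma adjusted p = 1.95e-05, rescaled 3.07, adjusted p = 3.01e-05). This carrier had passed the filter through injured conditions alone. SLC8A1 (NCX1), which exchanges sodium for calcium, had 2.03 and 3.81 TPM in Sham, 11.3 and 10.4 in non-repaired, 5.94 and 5.23 in Hya-repaired and 4.73 to 35.01 (median 9.11) in ECM-repaired limbs. The ECM-repaired limb of pig 024 stood far above the rest. Its rise as deposited (log2 fold change 1.44 ± 0.53 SE, limma adjusted p = 0.0336, rescaled 0.72, adjusted p = 0.143) was lost after rescaling and in 5 of 12 fits that each left out 1 library, with adjusted p up to 0.272, those without sham pig 025, sham pig 026, non-repaired pig 017, non-repaired pig 023 or Hya-repaired pig 016. SLC26A11, an anion carrier, was listed at 0 in sham pig 026 and at 0.463 TPM in sham pig 025, against 0.676 to 2.81 TPM in the injured limbs, with both non-repaired limbs highest (log2 fold change 1.44, limma adjusted p = 0.00104, rescaled 1.12, adjusted p = 0.00753). SLC26A11 had passed the filter through the non-repaired limbs alone. SLC20A1 (PiT1), a phosphate importer, was at 3.08 and 5.13 TPM in Sham and 3.04 to 14.4 TPM (median 6.80) in injured limbs and did not pass on either scale (log2 fold change 0.79, limma adjusted p = 0.172, rescaled 0.04, adjusted p = 0.935). Of 10 ion pumps and kinases, 2 rose and 2 fell (49.4% and 7.66% of all genes), against 2 and 7 after rescaling (28.7% and 28.7%). Of the sodium pump subunits, ATP1B3 rose (log2 fold change 2.20 ± 0.24 SE, limma adjusted p = 1.29e-05, rescaled 1.41, adjusted p = 5.09e-04) and ATP1B1 fell (log2 fold change -1.60 ± 0.57 SE, limma adjusted p = 0.0311, rescaled -2.41, adjusted p = 0.00376).

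Carriers of the other classes were fewer. Of 3 for iron and copper, SLC11A1 (NRAMP1), a metal carrier of the macrophage phagosome, was at 0.707 and 0.784 TPM in Sham and 1.19 to 4.50 TPM (median 3.51) in injured limbs. All injured limbs lay above both shams, and it rose on both scales (log2 fold change 1.47 ± 0.34 SE, limma adjusted p = 0.00304, rescaled 0.91, adjusted p = 0.0221). SLC11A1 had passed the filter through injured conditions alone, where it is high. SLC11A2 (DMT1), which imports iron, was at 2.46 and 3.22 TPM in Sham and 0.630 to 4.37 TPM (median 1.88) in injured limbs (log2 fold change -0.31, limma adjusted p = 0.534, rescaled -1.03, adjusted p = 0.018), and SLC31A2, a carrier tied to copper, at 7.46 and 6.996 TPM in Sham and 4.24 to 8.29 TPM (median 5.79) in injured limbs (log2 fold change -0.25, limma adjusted p = 0.415, rescaled -1.02, adjusted p = 0.0011). Both overlapped with Sham and were called lower after rescaling only.

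Carriers of nucleotide sugars supply the Golgi apparatus with building blocks for glycans, and 3 of 5 rose, where 49.4% of all genes were called higher. SLC35A2, for UDP-galactose, was at 1.54 and 2.14 TPM in Sham and 7.84 to 20.4 TPM (median 13.3) in injured limbs (log2 fold change 2.55, limma adjusted p = 4.46e-05, rescaled 1.86, adjusted p = 2.74e-04). SLC35A1, for CMP-sialic acid, was at 9.73 and 9.26 TPM in Sham and 14.8 to 34.5 TPM (median 23.7) in injured limbs (log2 fold change 1.28, limma adjusted p = 0.00254, rescaled 0.49, adjusted p = 0.0321). SLC35A3, for UDP-N-acetylglucosamine, was at 4.71 and 3.87 TPM in Sham and 4.68 to 11.6 TPM (median 7.40) in injured limbs (log2 fold change 0.75, limma adjusted p = 0.0426, rescaled -0.00, adjusted p = 0.987), and its call as deposited was lost in 8 of 12 fits without 1 library, with adjusted p up to 0.23, and held without non-repaired pig 017, Hya-repaired pig 017 or ECM-repaired pigs 013 and 024. SLC35A4 (log2 fold change -0.28, limma adjusted p = 0.389, rescaled -1.08, adjusted p = 0.00196) and SLC29A1 (ENT1), a nucleoside carrier (log2 fold change -0.18, limma adjusted p = 0.598, rescaled -0.99, adjusted p = 9.78e-04), were called lower after rescaling only.

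Of 11 carriers of vitamins and organic ions, 6 rose, of which 3 had passed the filter through injured conditions alone, and 0 fell as deposited, against 3 and 3 after rescaling. Among all genes, 49.4% were called higher and 7.66% lower, and 28.7% and 28.7% after rescaling. SLC52A2, for riboflavin, was at 1.70 and 3.52 TPM in Sham and 7.92 to 16.1 TPM (median 11.1) in injured limbs (log2 fold change 1.97, limma adjusted p = 2.70e-04, rescaled 1.26, adjusted p = 9.43e-04). SLC46A1, which carries folate and heme, was at 0.893 and 1.07 TPM in Sham and 2.83 to 6.15 TPM (median 4.41) in injured limbs (log2 fold change 1.70, limma adjusted p = 3.54e-04, rescaled 1.10, adjusted p = 9.52e-04), and SLC46A2 of the same family at 0.109 and 0.180 TPM in Sham and 1.77 to 4.90 TPM (median 3.44) in injured limbs (log2 fold change 2.47, limma adjusted p = 2.62e-05, rescaled 2.20, adjusted p = 4.09e-05). All 3 were above both shams in every injured limb, and SLC46A1 and SLC46A2 had passed the filter through injured conditions alone. SLC5A6, for biotin and pantothenate (log2 fold change 0.80, limma adjusted p = 0.0222, rescaled 0.05, adjusted p = 0.868), and SLC22A5 (OCTN2), for carnitine (log2 fold change 0.78, limma adjusted p = 0.0457, rescaled 0.09, adjusted p = 0.757), rose as deposited only. The call of SLC5A6 was lost without sham pig 025 (adjusted p = 0.327), and that of SLC22A5 in 9 of 12 fits without 1 library, with adjusted p up to 0.325, holding only without Hya-repaired pig 017 or ECM-repaired pigs 013 and 024. SLC19A1, the reduced folate carrier, missed the threshold (log2 fold change 0.75, limma adjusted p = 0.0686, rescaled -0.01, adjusted p = 0.974) and passed as deposited without ECM-repaired pig 018 (adjusted p = 0.0429).

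Among carriers of lipids, SLC27A4 (FATP4) rose and SLC27A1 (FATP1), the fatty acid transport protein of muscle and fat, fell. SLC27A1 had 14.8 and 23.4 TPM in Sham, 9.59 and 8.64 in non-repaired, 6.53 and 11.1 in Hya-repaired and 3.07 to 11.1 (median 6.75) in ECM-repaired limbs (log2 fold change -1.22 ± 0.42 SE, limma adjusted p = 0.0249, rescaled -2.02, adjusted p = 5.73e-04), and the call as deposited was lost without sham pig 025 (adjusted p = 0.0596), sham pig 026 (adjusted p = 0.216) or Hya-repaired pig 016 (adjusted p = 0.0527). SLC27A4 had 5.60 and 11.9 TPM in Sham, 38.2 and 37.8 in non-repaired, 55.8 and 19.3 in Hya-repaired and 23.9 to 43 (median 31.3) in ECM-repaired limbs (log2 fold change 1.99 ± 0.37 SE, limma adjusted p = 7.18e-04, rescaled 1.20, adjusted p = 0.00578). SLC44A3, a choline transporter-like protein, was at 1.97 and 1.95 TPM in Sham and 0.470 to 1.43 TPM (median 0.894) in injured limbs and fell (log2 fold change -0.78, limma adjusted p = 0.0425, rescaled -1.44, adjusted p = 6.34e-04), a call lost in 9 of 12 fits without 1 library, with adjusted p up to 0.19, and held without Hya-repaired pig 017 or ECM-repaired pigs 014 and 024. SLC44A3 had passed the filter through Sham alone, where it is high, so its fall is partly set by the filter. SLC44A2 of the same family was at 47.6 and 66.5 TPM in Sham and 39.7 to 103 TPM (median 71.4) in injured limbs, with a positive difference as deposited and a call as lower after rescaling (log2 fold change 0.28, limma adjusted p = 0.479, rescaled -0.54, adjusted p = 0.0426). SLC6A8, which imports creatine, had 53 and 64.6 TPM in Sham, 54.8 and 57.2 in non-repaired, 53.9 and 46.8 in Hya-repaired and 24.9 to 47.3 (median 34.5) in ECM-repaired limbs (log2 fold change -0.35 ± 0.27 SE, limma adjusted p = 0.29, rescaled -1.16, adjusted p = 4.46e-04). SLC6A6, which imports taurine and had passed the filter through Sham alone, was at 1.40 and 1.55 TPM in Sham and 0.227 to 1.49 TPM (median 0.774) in injured limbs (log2 fold change -0.68, limma adjusted p = 0.0884, rescaled -1.32, adjusted p = 0.00107). In VML-injured muscle both were called lower after rescaling only. In ECM-repaired muscle SLC6A8 fell as deposited too, by -0.77 (limma adjusted p = 0.0338). In VML-injured muscle SLC6A6 passed as deposited in 1 of 12 fits without 1 library, that without ECM-repaired pig 024 (limma adjusted p = 0.0271). Its log2 fold change over these fits ranged from -0.739 to -0.620. SLC15A4, a histidine and peptide carrier of lysosomes, was the single peptide carrier tested, at 8.65 and 11.5 TPM in Sham and 9.86 to 26.6 TPM (median 17.5) in injured limbs (log2 fold change 0.76, limma adjusted p = 0.0815, rescaled -0.03, adjusted p = 0.91), and passed as deposited without Hya-repaired pig 017 (adjusted p = 0.0418).

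Each injured condition was also set against the same 2 sham-operated limbs. In ECM-repaired muscle 41 carriers rose and 16 fell, where 48% and 10% of all genes were called. In non-repaired muscle 39 rose and 2 fell (45.1% and 1.18% of all genes), and in Hya-repaired muscle 30 rose and 5 fell (33.9% and 3.76%). After rescaling the counts were 31 and 32 (29.3% and 29.7%), 28 and 21 (21.8% and 21.5%), and 26 and 26 (23.1% and 19.9%). The ECM-repaired group has 6 limbs and the others 2 each, so a call in one and not in another does not show a difference between them.

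Compared directly, 0 carriers and 0 genes of 8782 (0%) differed between ECM-repaired and non-repaired, Hya-repaired and non-repaired, or ECM-repaired and Hya-repaired muscle, or between ECM-repaired muscle and the mean of the other injured conditions (limma), on either scale. At an unadjusted p below 0.05 there were 3, 5, 2 and 3 carriers, against 0.808%, 2.23%, 2.35% and 1.3% of all genes, and after rescaling 3, 4, 4 and 2 carriers, against 1.38%, 1.98%, 4.11% and 2.79%. The carriers given next were chosen for their small p, or as examples of the classes above. For SLC26A11 the difference of ECM-repaired from non-repaired muscle was -1.11 on the log2 scale (95% interval -1.74 to -0.48, unadjusted p = 0.00224, limma adjusted p = 0.904) and that of Hya-repaired from non-repaired muscle -1.16 on the log2 scale (95% interval -1.93 to -0.39, unadjusted p = 0.00656, limma adjusted p = 0.912). It passed the filter through the non-repaired limbs alone, so that its higher level there is partly set by the filter. For the creatine carrier SLC6A8 the difference of ECM-repaired from other injured muscle was -0.63 on the log2 scale (95% interval -1.11 to -0.14, unadjusted p = 0.0153, limma adjusted p = 1). For SLC41A2 that of ECM-repaired from Hya-repaired muscle was 0.97 on the log2 scale (95% interval 0.05 to 1.89, unadjusted p = 0.041, limma adjusted p = 1). For the Golgi zinc carrier SLC30A7 the difference of Hya-repaired from non-repaired muscle was -1.01 on the log2 scale (95% interval -1.88 to -0.13, unadjusted p = 0.0275, limma adjusted p = 0.912). For SLC2A4, ECM-repaired and non-repaired muscle differed by -1.28 on the log2 scale (95% interval -3.51 to 0.96, unadjusted p = 0.235, limma adjusted p = 0.904), and for SLC39A7 by -0.07 on the log2 scale (95% interval -0.84 to 0.71, unadjusted p = 0.851, limma adjusted p = 0.967). None of these passed after adjustment.

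The injured limbs differed among themselves in how much fiber RNA they held. The fiber-marker level, the mean log2(TPM + 0.5) of 13 fiber markers, was 12.8 in both sham-operated limbs and 10.6 to 11.7 in 7 injured limbs, and it was 8.53 to 9.22 in the ECM-repaired limbs of pigs 014 and 018 and the Hya-repaired limb of pig 016. Slopes on it were fitted over the 10 injured limbs beside a coefficient per condition, so they are slopes within conditions. At adjusted p below 0.05, 8 of 93 carriers had a positive slope and 0 a negative one, where 5.19% of all genes tested rose and 1.01% fell with it. After rescaling 10 rose and 0 fell (5.87% and 0.901% of all genes tested). The steepest were SLC2A4, with a slope of 1.34 ± 0.14 (SE, limma adjusted p = 3.36e-04) log2 units for each log2 unit of the markers, and SLC38A3, with 1.34 ± 0.17 (SE, limma adjusted p = 9.53e-04). Among named carriers, SLC9A2, with 0.79 ± 0.15 (SE, limma adjusted p = 0.00897), SLC37A4, with 0.55 ± 0.09 (SE, limma adjusted p = 0.00392), SLC16A3, with 0.50 ± 0.09 (SE, limma adjusted p = 0.00732), and SLC1A3, with 0.64 ± 0.16 (SE, limma adjusted p = 0.043), also rose. SLC41A1, a magnesium carrier, with 0.56 ± 0.10 (SE, limma adjusted p = 0.00847), and SLC2A12, a hexose carrier, with 0.54 ± 0.12 (SE, limma adjusted p = 0.0221), complete the 8 and are named after their values were seen. No zinc carrier was among them, nor any carrier of the lipid, iron and copper, nucleotide sugar, creatine, peptide or vitamin classes.

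The 3 limbs of lowest fiber-marker level stood apart from the other 7. With those 3 left out, 0 carriers and 0 of all genes tested passed in either direction (limma), and 1 carrier had an unadjusted p below 0.05, where 2.12% of all genes did. Hya-repaired muscle then had 1 limb, which its own coefficient takes up, so these slopes rest on the non-repaired and ECM-repaired limbs. The slopes themselves stayed positive in the 8 carriers but had wide errors. That of SLC2A4 was 0.47 ± 0.69 (SE), that of SLC38A3 0.75 ± 0.82 (SE), that of SLC16A3 0.58 ± 0.55 (SE) and that of SLC9A2 1.37 ± 0.90 (SE), so some were smaller and some larger than over the 10 limbs. Leaving out ECM-repaired pig 014 alone left 3 carriers that passed, and the same count over all genes was not taken. Within the 7 limbs of higher level, the correlation of SLC16A3 with the level was r = 0.85 (Pearson, exact permutation p = 0.0131, adjusted p = 0.354 over 27 carriers) and rho = 0.71 (Spearman, exact permutation p = 0.0881, adjusted p = 0.643), and r was 0.40 without the 2 limbs farthest from the median. For SLC2A4 r was 0.69 (exact permutation p = 0.101) and rho 0.54 (exact permutation p = 0.236), and r was -0.11 without the 2 farthest limbs. None of the 27 passed the adjustment, and these correlations, unlike the slopes, took no account of condition. In the 3 limbs of low fiber-marker level, SLC2A4 stood at 1.70 to 2.83 log2(TPM + 0.5), below the 4.29 to 5.86 of the other 7, and SLC38A3 at -0.09 to 1.83, below 2.83 to 4.26. SLC16A3 overlapped, at 3.24 to 4.08 against 3.93 to 5.41.

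**Figure D5:**
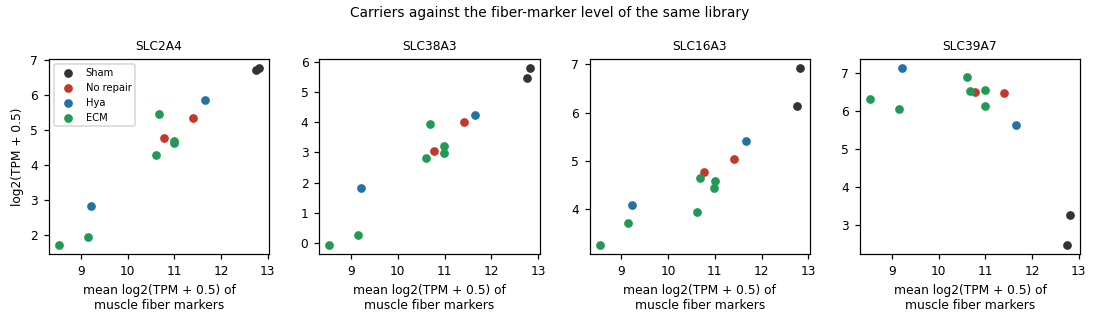
Each point is 1 library, placed by the mean log2(TPM + 0.5) of 13 muscle fiber markers (x axis) and the log2(TPM + 0.5) of the carrier (y axis), colored by group. SLC2A4 and SLC38A3 were lowest in the 3 injured libraries of lowest fiber-marker level, 8.53 to 9.22, SLC16A3 overlapped between these and the other 7, and SLC39A7 was high in all 10 injured libraries and low only in the 2 Sham libraries at 12.8.

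For single carriers, an exact two-sided permutation test over all 66 splits of the 12 limbs can give no p below 0.0152. At that p were 36 carriers with injured limbs higher and 5 with injured limbs lower, where 46.2% and 5.8% of all genes were. SLC2A10, SLC16A3, SLC38A5 and SLC39A7 are among them, of which SLC2A10 and SLC38A5 had passed the filter through injured conditions alone. SLC38A3 had an exact permutation p of 0.0303 and SLC2A4 one of 0.0606. Of 28 carriers listed for their known roles, 24 are in the table and 22 passed the filter. SLC7A5, SLC7A8, SLC8A3 and SLC40A1 were not analysed here. SLC38A1, a glutamine carrier, at 0.233 and 0.586 TPM in sham-operated and 0.325 to 1.27 TPM in injured limbs, and SLC4A4, a bicarbonate cotransporter, at 0.804 and 1.16 TPM against 0.174 to 0.813 TPM, were below the filter.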

How the data were processed

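RNA-seq abundances of 12 limbs of 11 pigs were used. The authors prepared TruSeq libraries from total RNA, sequenced them from both ends, estimated transcript levels with kallisto under its default settings on the annotated pig genome and used DESeq2 for their own tests. The deposited values are TPM for 11506 named genes. The version of kallisto is not given in the sources used here. TPM keep no depth, so the precision per library is unknown and the number of limbs limits each comparison. Nothing in the labels sets out separate cultures or litters, and p-values measure the spread between these limbs. The limma fits held no term for the pig, so the limbs of the pig sampled on both sides entered as independent. The exact permutation tests treated all limbs alike in the same way. In the limma fits the spread is pooled over the conditions, so p-values against Sham rest mostly on the spread among injured limbs.

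A gene was tested if every library of some condition held 1 TPM or more of it, and log2(TPM + 0.5) was fitted over all 12 libraries with limma 3.58.1 in R 4.3.3, with a coefficient per condition and eBayes with trend and robust estimation. On this scale the change of a gene of low TPM is understated. P-values were adjusted over all 8782 genes by Benjamini and Hochberg's method, with a threshold of 0.05. Rescaling multiplied TPM by a factor per library from unweighted trimmed means of log ratios. Slopes on the fiber-marker level used the 10 injured limbs, with a coefficient per condition beside the level. Their p-values were adjusted over all 8782 genes, the 13 markers included, and the markers were then left out of the counts. Exact permutation tests used scipy 1.17.1 in Python 3.11.15. The steps were tested on simulated data.

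Carriers were named by a rule: 28 listed carriers, the 3 with the highest mean and up to 3 rises and 3 falls of largest size per class, and the 5 with the smallest p in each comparison between injured conditions, which gave 60, of which 2 are not reported here, nor are some partner genes. Partner genes are named by smallest p, up to 3 per list. The members, classes and lists were chosen with earlier results of these data known. A further 11 rows are named LOC but have a solute carrier symbol in RefSeq, and were not counted as members. No sequences or coordinates were used. The alternatives were median-of-ratios and named-gene rescaling, pseudocounts of 0.1 and 1, other filters, plain eBayes, fits on the compared libraries alone, and libraries left out.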

Additional observations from a re-analysis of the deposited data

Results flagged for a closer look

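Within the 6 ECM-repaired limbs, 1 limb stood apart from the other 5 by Dixon's ratio (the gap to the nearest limb over the whole range, critical value 0.625) in 7 of the named carriers and 13 of all 93. Chance flags about 1 in 20 groups. Of the 13, 11 had the limb of pig 024 apart. Among named carriers it was highest in SLC8A1 at 35.01 TPM (ratio 0.773), SLC38A2 at 49.0 TPM (0.788), SLC30A6 at 10.99 TPM (0.762), SLC30A4 at 2.61 TPM (0.737) and SLC7A2 at 1.48 TPM (0.635). This library also had the smallest TMM factor of the 12, 0.667. The limb of pig 013 was apart in SLC2A5 at 4.56 TPM (0.769), and that of pig 022 in SLC5A10 at 7.52 TPM (0.675). Of 12 sums tested, those of the 11 classes and of all members, 0 were flagged.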

How the results depend on the processing

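Counts in this section are of carriers. The share of all genes called was taken as deposited, after TMM, and for slopes without the 3 limbs of lowest fiber-marker level. Under the other alternatives it was not taken, so those counts do not set carriers apart from other genes. Rescaling raised the counts of carriers called lower. By TMM and by median of ratios alike, carriers lower than Sham numbered 30 in VML-injured (8 as deposited), 32 in ECM-repaired (16), 21 in non-repaired (2) and 26 in Hya-repaired muscle (5), and those of the sugar, amino acid, zinc and ion classes 4, 6, 1 and 5 (1, 2, 0 and 2). By TMM, 7 named carriers with a positive log2 difference as deposited, of which SLC35A3 alone had been called, turned negative: SLC15A4 (-0.031), SLC19A1 (-0.010), SLC30A4 (-0.50), SLC30A6 (-0.15), SLC30A9 (-0.66), SLC35A3 (-0.0047) and SLC44A2 (-0.54). By median of ratios these were -0.027, -0.0062, -0.49, -0.14, -0.66, -0.0011 and -0.53. Scaling the named genes to a common sum, or a pseudocount of 1, gave 2 sugar carriers lower. A pseudocount of 0.1 left 1 carrier lower in non-repaired muscle and 1 amino acid carrier lower. A filter of 5 TPM, which tests fewer genes, left 26 higher and 5 lower in VML-injured, 26 and 10 in ECM-repaired, 1 lower in non-repaired and 3 lower in Hya-repaired muscle, with 5 sugar carriers higher and 1 amino acid and 1 ion carrier lower. With only the libraries compared, 9 carriers were lower in non-repaired muscle.

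Leaving out 1 limb at a time gave 25 to 45 carriers higher and 2 to 12 lower in VML-injured, 25 to 42 and 5 to 17 in ECM-repaired, 23 to 47 and 0 to 3 in non-repaired, and 14 to 33 and 1 to 9 in Hya-repaired muscle. For VML-injured it gave 5 to 10 sugar and 4 to 8 ion carriers higher, and 0 to 3 sugar, 0 to 4 amino acid and 1 to 3 ion carriers lower. Carriers rising with the fiber-marker level numbered 3 to 9. The smallest counts came mostly without a sham-operated limb, when the remaining one is assumed to vary like the other groups. SLC3A2 ranged from -0.27 to 0.17 and was positive without sham pig 026 or Hya-repaired pig 017, and SLC35A4 ranged from -0.57 to 0.0076 and was positive without sham pig 026. Without both limbs of pig 017, 0 carriers were lower in non-repaired muscle, 3 sugar carriers were lower, 5 carriers rose with the fiber-marker level and SLC3A2 stood at 0.048. Without the 3 limbs of lowest fiber-marker level, an alternative chosen after seeing the data, 7 carriers were lower in non-repaired muscle, 14 higher and 1 lower in Hya-repaired muscle, 2 sugar carriers lower, and 0 rose with the fiber-marker level. The counts of 0 between injured conditions held under all alternatives run. Of 58 named carriers, 15 lost a call and 7 gained one in at least 1 fit without 1 limb. The causes were not tested.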
